A study of Mus musculus with 30 samples.

Results

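Of the 55414 genes counted in mouse bone marrow-derived macrophages, 6 were followed through all 30 libraries: Intu, Hacd3, Apobec1, Tpst1, Tagap and Nid1. They were chosen by their measured log2 fold changes of TRα1PV over WT, which were not the same in the 3 activation states, so the genotype differences of these genes, within a state or averaged over states, are descriptions and carry no p-value. All 6 were among the 15686 genes with enough reads to be tested. TRα1PV is a mutant of the thyroid hormone receptor TRα1, carried by transgenic mice, and WT mice were the controls. Bone marrow of both was grown for 7 days in medium with 15 or 20% L929-conditioned medium, in which monocytes become macrophages. The 6 groups of 5 libraries were TRα1PV M1, WT M1, TRα1PV M2, WT M2, TRα1PV M0 and WT M0. M1 cells received lipopolysaccharide (LPS) and interferon-γ at 20 ng/mL each, M2 cells received interleukin-4 at 20 ng/mL, and M0 cells were left unstimulated. The zygosity of the allele, the age and number of the mice and the length of stimulation were not stated in the labels. Replicates are labelled as biological, but whether each came from a separate mouse is not stated, so p-values measure the spread between these libraries. Whether the 3 states of a replicate number share the same bone marrow is not stated either, and the tests took all 30 libraries as independent. If they do share it, genotype effects averaged over states rest on fewer independent units than the tests assume.

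Thyroid hormone receptors are nuclear receptors that bind DNA with or without hormone. The PV form of TRα1 does not bind the hormone and acts as a dominant-negative receptor. LPS and interferon-γ drive macrophages to an inflammatory programme, and interleukin-4 drives an alternative programme through STAT6. The 6 genes have unrelated roles. Intu is a planar polarity effector that works with Fuz and Wdpcp in building cilia. Hacd3 is a 3-hydroxyacyl-CoA dehydratase of the cycle that elongates very long chain fatty acids. Apobec1 is a cytidine deaminase, known for editing Apob mRNA in the gut and other transcripts in mouse macrophages. Tpst1 is a Golgi enzyme that adds sulfate to tyrosines of secreted and membrane proteins, chemokine receptors among them. Tagap is a protein that in mice acts downstream of Dectin receptors. Nid1 encodes nidogen-1, which links laminin and collagen IV in basement membranes.

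Reads in genes numbered 23015952 to 59086252 per library. Thra, which encodes TRα1, had 49.2 ± 3.59 CPM (read count relative to library size after TMM scaling, mean ± SD, n = 5) in TRα1PV M1 and 25.7 ± 6.06 CPM in WT M1, and every TRα1PV library was above every WT library in each state. All 8 macrophage markers were above 1 CPM on average in every group. Summed M1 markers were between 14267 and 17301 CPM in M1 libraries and at most 352 CPM elsewhere, and summed M2 markers were between 11527 and 16608 CPM in M2 libraries and at most 244 CPM elsewhere. Of the 8 T and NK cell markers, 0 had enough reads to be tested. WT M0 replicate 2 stood apart, with 4.56% of its gene reads mitochondrial, where the other libraries of its group had 0.921 to 2.07%. Without it, 6143 rather than 4072 genes were called between the genotypes in M0. Calls in the other states rose too, to 3808 from 3132 in M1 and to 2900 from 2055 in M2. Nid1 gave the largest move among the 6 genes, with a log2 fold change in M0 of -3.32 without that library and -3.41 with it.

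**Figure D1:**
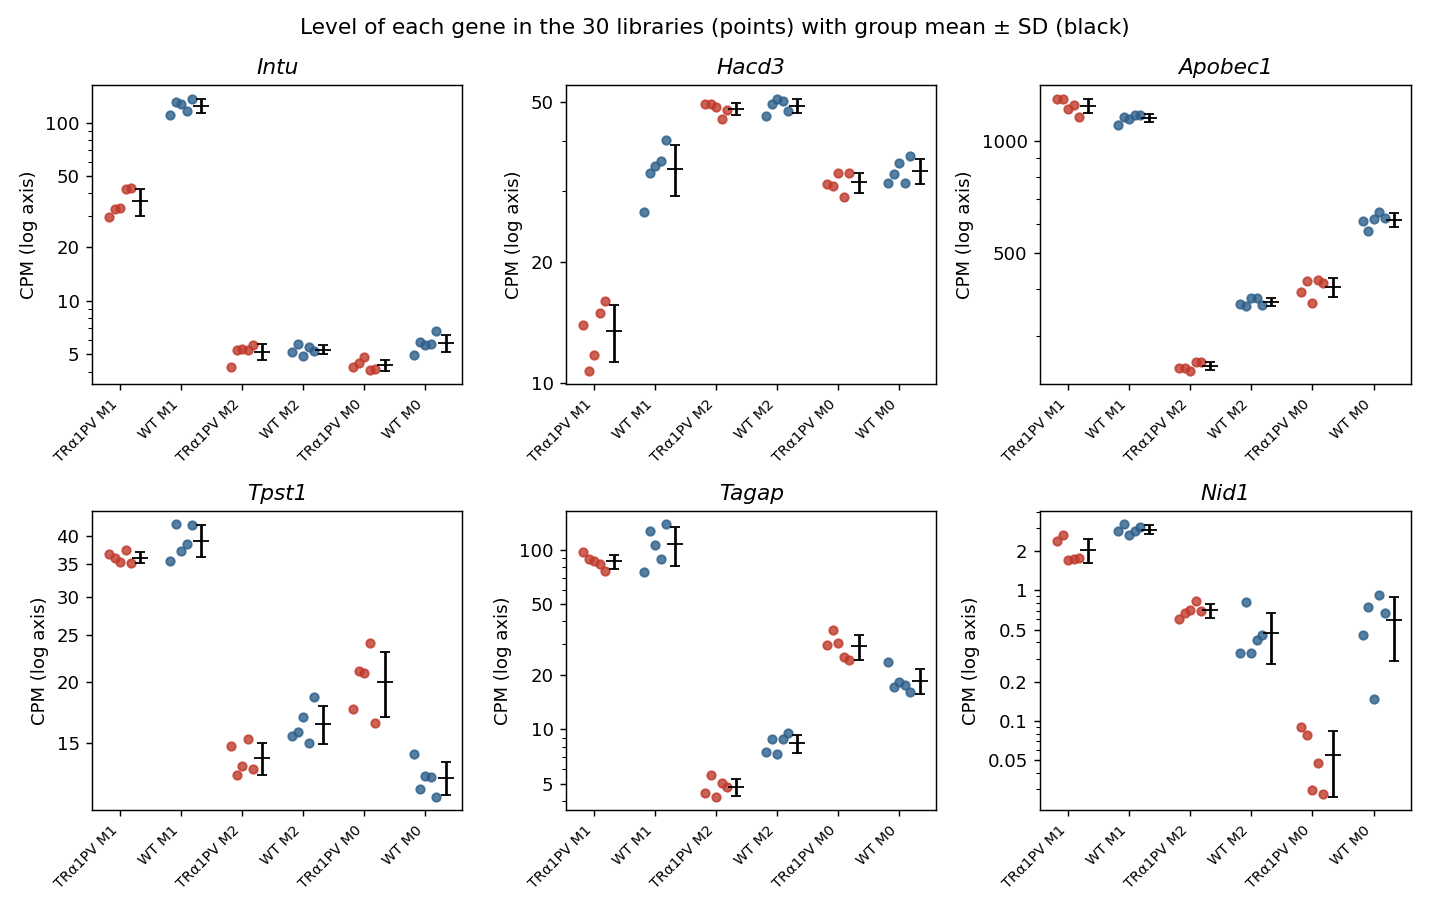
Level of each gene in CPM on a log axis in the 30 libraries, with 1 point per library and black bars for the group mean ± SD (n = 5). Intu in TRα1PV M1 lay between 29.3 and 42.8 CPM, below all WT M1 libraries at 110.0 to 136 CPM, while Tagap in TRα1PV cells lay below WT in M2 and above WT in M0.

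The states in which the genotypes separated were not the same for the 6 genes. In M1, 3 of 6 genes had no overlap between TRα1PV and WT libraries, all with TRα1PV lower (Intu, Hacd3 and Nid1). Over all genes tested, 20.0% were called between the genotypes in M1, 9.74% higher and 10.2% lower in TRα1PV. In M2, 2 of 6 did not overlap, again with TRα1PV lower (Apobec1 and Tagap), beside 13.1% of all genes called (6.14% higher, 6.96% lower). In M0, 5 of 6 did not overlap, with Intu, Apobec1 and Nid1 lower and Tpst1 and Tagap higher in TRα1PV, beside 26.0% of all genes called (12.0% higher, 14.0% lower). Hacd3 overlapped in M0. A lack of overlap and a call are different measures, and the share of all genes without overlap was not counted. Since these contrasts also chose the genes, nothing is read from the counts.

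**Figure D2:**
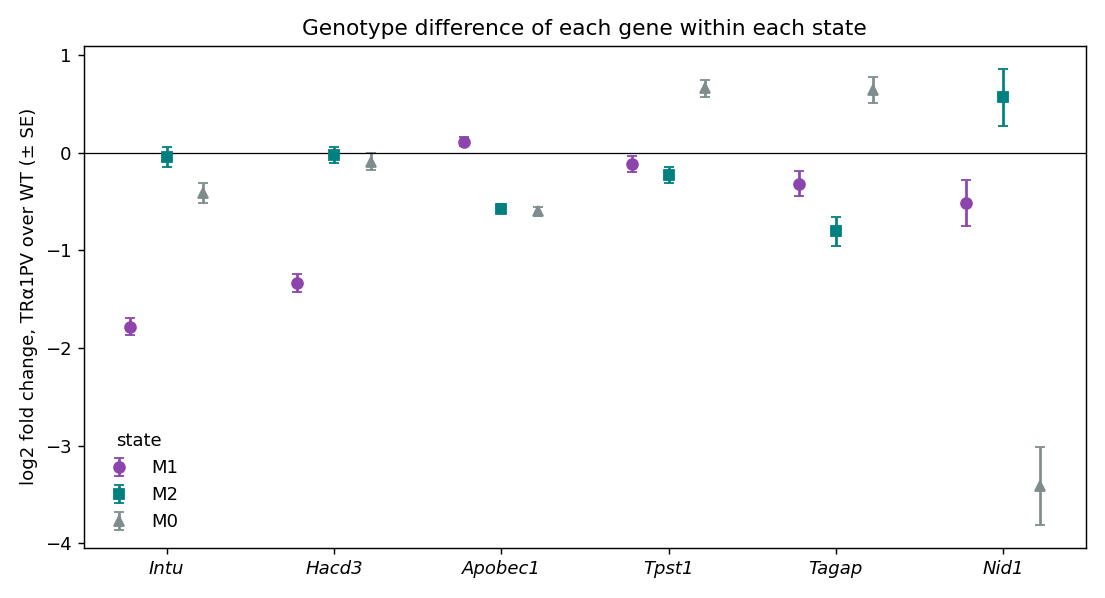
Log2 fold change of TRα1PV over WT with its SE within M1, M2 and M0 for each gene, from 1 fit over all 30 libraries. Intu and Hacd3 lie lowest in M1, at -1.78 and -1.34, Tpst1 and Tagap lie above 0 only in M0, and Nid1 lies lowest in M0 at -3.41.

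Intu had 29.3, 32.8, 33.1, 42.5 and 42.8 CPM in TRα1PV M1, against 110.0, 131, 128, 116 and 136 CPM in WT M1. Every TRα1PV M1 library was thus below every WT M1 library. Intu in M2 was at 4.26, 5.30, 5.33, 5.27 and 5.64 CPM in TRα1PV and at 5.16, 5.72, 4.92, 5.52 and 5.23 CPM in WT, and these ranges overlapped. In M0, TRα1PV libraries had 4.23, 4.46, 4.81, 4.08 and 4.13 CPM of Intu, against 4.99, 5.87, 5.65, 5.71 and 6.72 CPM in WT. All TRα1PV M0 libraries were lower, by a smaller margin than in M1. The mean was 3.44-fold lower in TRα1PV than in WT in M1, with a log2 fold change of -1.78 ± 0.09 (SE), against -0.04 ± 0.10 in M2 and -0.41 ± 0.10 in M0. The labels' batch field gives the replicate number, with 1 library of each group per number. Within each replicate number, the Intu log2 ratio in M1 was between -1.99 and -1.45. In bulk RNA, fewer cells that express a gene and less RNA per cell cannot be told apart.

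Both M1 groups stood above all others in Intu. The ratio of mean Intu level in M1 to that in M0 was 8.31 in TRα1PV and 21.5 in WT. The M1 response averaged over the genotypes, which is another combination of the group means than the difference that chose the genes, was a log2 change of 3.74 ± 0.07 (adjusted p = 1.47e-28, edgeR quasi-likelihood test with Benjamini-Hochberg adjustment), higher in M1 within 5 of 5 replicate numbers. The averaged M2 response was 0.06 ± 0.07 (adjusted p = 0.449, edgeR). From the highest level down, the order was WT M1, TRα1PV M1, WT M0, WT M2, TRα1PV M2 and TRα1PV M0, and neighbours among the last 4 overlapped.

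Hacd3 separated the genotypes in M1 alone. It had 14.0, 10.7, 11.8, 14.9 and 16.0 CPM in TRα1PV M1, against 26.7, 33.2, 34.7, 35.6 and 40.2 CPM in WT M1, with no overlap. In M2, Hacd3 was at 49.3, 49.4, 48.6, 45.3 and 47.6 CPM in TRα1PV and at 46.0, 49.5, 51.0, 50.3 and 47.6 CPM in WT, which cover the same range. In M0, TRα1PV libraries held 31.3, 30.9, 33.3, 29.0 and 33.2 CPM of Hacd3 and WT libraries 31.5, 33.2, 35.3, 31.5 and 36.7 CPM, also overlapping. Log2 fold changes between genotypes were -1.34 ± 0.09 in M1, -0.02 ± 0.09 in M2 and -0.09 ± 0.09 in M0, and the mean was 2.53-fold lower in TRα1PV than in WT in M1. Within the replicate numbers the M1 ratio ran from -1.63 to -0.93 on the log2 scale.

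Unlike Intu, Hacd3 in M1 did not lie above M0 in TRα1PV cells. Its mean level in M1 was 2.34-fold lower than in M0 in TRα1PV cells and 1.01 times that in M0 in WT cells. Averaged over the genotypes the log2 change was -0.60 ± 0.06 in M1 (adjusted p = 2.84e-10, edgeR), lower within 5 of 5 replicate numbers. By the ratios above, this average rests on the TRα1PV cells, whose M1 level is part of what chose the gene. In M2 the averaged change was 0.57 ± 0.06 (adjusted p = 1.28e-09, edgeR), higher within 5 of 5. Hacd3 was highest in both M2 groups, which overlapped each other, and lowest in TRα1PV M1, apart from all other groups. WT M1, WT M0 and TRα1PV M0 lay between and overlapped as neighbours.

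Intu and Hacd3 lie on chromosomes 3 and 9. Once the mean of each state was subtracted, Pearson's r over the 30 libraries was 0.950. This describes points that share library, depth and genotype. The genotype gap in M1, which helped choose both genes, stays in these values, so the r is no support for a link. RefSeq start-site windows of both genes span 250 bases before to 50 after the annotated start. They are shown because both genes were lower in TRα1PV than in WT in M1. Capitals mark TCACGTG, an E-box with a flanking T, searched on both strands and chosen after the sequences were seen. It lies at base -2 from the start of Intu and at -79 in Hacd3, and 3.77% of all 32851 windows in the mouse genome build GRCm38.p6 hold it. The windows are chr3:40540517-40540816 on the plus strand for Intu and chr9:65021668-65021967 on the minus strand for Hacd3.
Intu: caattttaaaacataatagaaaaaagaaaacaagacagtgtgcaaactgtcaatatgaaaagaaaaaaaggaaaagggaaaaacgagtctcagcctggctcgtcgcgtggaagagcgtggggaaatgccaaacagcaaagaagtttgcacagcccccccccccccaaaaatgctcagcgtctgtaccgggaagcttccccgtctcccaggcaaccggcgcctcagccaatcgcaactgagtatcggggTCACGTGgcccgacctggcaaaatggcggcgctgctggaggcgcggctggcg
Hacd3: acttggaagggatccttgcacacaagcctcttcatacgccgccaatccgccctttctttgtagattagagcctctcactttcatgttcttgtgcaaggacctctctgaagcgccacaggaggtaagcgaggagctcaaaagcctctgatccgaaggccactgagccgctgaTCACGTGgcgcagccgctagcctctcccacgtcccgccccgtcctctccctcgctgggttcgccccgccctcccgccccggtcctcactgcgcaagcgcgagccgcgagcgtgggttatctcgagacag
Neither window held the thyroid hormone receptor motif AGGTCA (16.3% of all windows) or its direct repeat with 4 bases between the copies (0.0152%). The STAT6 motif (TTC and GAA with 4 between, 6.95%) and the interferon motif (GAAA and GAAA with 2 between, 3.44%) were also without a match. A match or its lack describes these letters alone.

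**Figure D3:**
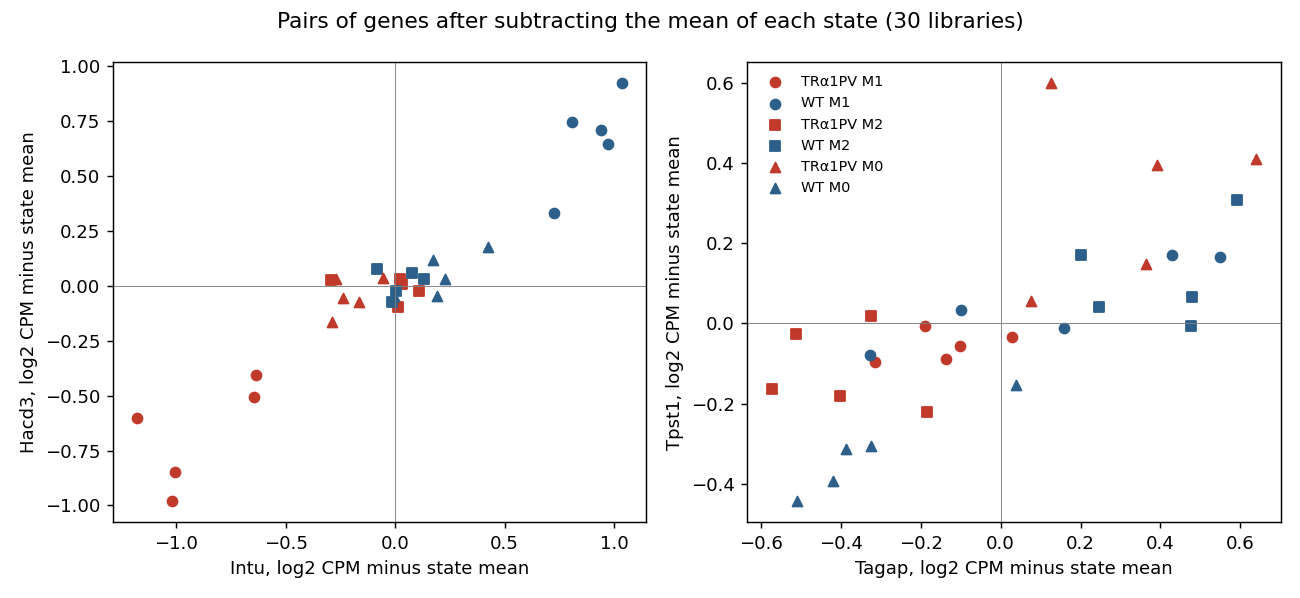
Log2 CPM minus the mean of its state in the 30 libraries for Intu against Hacd3 (left) and Tagap against Tpst1 (right), with 1 point per library and colour and shape for genotype and state. On the left the TRα1PV M1 libraries sit at the lower left and the WT M1 libraries at the upper right (r = 0.950), and on the right the WT M0 libraries sit lower than the TRα1PV M0 libraries (r = 0.735).

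Genes closest to Intu in level over the 30 libraries were Pcp4 (r = 0.986), Krt16 (0.983) and Pmpca (0.978). With state means subtracted they were N6amt1 (0.920), Sfxn1 (0.914) and Ddx21 (0.913). For Hacd3 they were Phtf2 (0.944), Sfxn1 (0.930) and Rrn3 (0.930) in level, and Sfxn1 (0.907), Phtf2 (0.906) and Acsl1 (0.894) with state means subtracted. Sfxn1 was therefore near both genes on the second measure. The M1 genotype gap that helped choose both genes stays in these values, so a shared neighbour is no support for a link. In the neighbour lists of the other genes below, the genotype gaps that chose each gene stay in the values as well.

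Other genes of the cilium machinery were counted for the same differences. The measure used is the genotype effect in M1 minus that in M0, and a gene called higher has the more positive TRα1PV over WT log2 ratio in M1. Of 24 other planar polarity effector and intraflagellar transport genes, all tested, 4 were higher and 3 lower, or 29.2% called beside 26.6% of all genes, with a median log2 difference of 0.04 beside 0.02 for all genes. For the difference between M2 and M0, 0 of 24 were called, beside 2.16% of all genes. Averaged over states, 2 were higher and 3 lower in TRα1PV (20.8% called beside 26.2% of all genes). Traf3ip1, an intraflagellar transport component, had an M1 minus M0 difference of 0.43 ± 0.11 (adjusted p = 0.00485, edgeR) and averaged 9.40 ± 1.08 CPM in TRα1PV M1 and 8.96 ± 0.604 CPM in WT M1, against 7.04 ± 0.228 CPM in TRα1PV M0 and 9.04 ± 0.522 CPM in WT M0. Ift20, another component, had a difference of 0.35 ± 0.09 (adjusted p = 0.00504, edgeR). Dync2h1, the motor heavy chain of retrograde transport, was higher in TRα1PV averaged over states, by 0.34 ± 0.05 (adjusted p = 9.07e-06, edgeR), and Ift57 was lower, by -0.40 ± 0.07 (adjusted p = 4.23e-05, edgeR). Each of these 4 held its direction within 5 of 5 replicate numbers.

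Among 18 other genes of fatty acid elongation, desaturation and activation, 15 could be tested. For M1 minus M0, 1 was higher and 5 lower (40.0% called beside 26.6% of all genes), and the median log2 difference was -0.01 beside 0.02 for all genes. For M2 minus M0, 0 of 15 were called beside 2.16% of all genes, a share too low to read anything from 0 of 15. Averaged over states, 2 were higher and 3 lower (33.3% called beside 26.2%). Acsl1, which activates long chain fatty acids and rises in inflammatory macrophages, averaged 445 ± 87.7 CPM in TRα1PV M1 and 762 ± 123 CPM in WT M1, against 47.5 ± 2.77 CPM in TRα1PV M0 and 52.0 ± 3.32 CPM in WT M0. Its M1 minus M0 difference was -0.65 ± 0.14 (adjusted p = 0.00166, edgeR), in the direction of Hacd3, and its average genotype effect was -0.30 ± 0.06 (adjusted p = 0.000198, edgeR). Acsl5, of the same enzyme family, went the other way with a difference of 0.36 ± 0.07 (adjusted p = 0.000475, edgeR). Hacd4, a dehydratase of the family of Hacd3, was higher in TRα1PV averaged over states, by 0.37 ± 0.07 (adjusted p = 0.000177, edgeR). These 4 results held in 5 of 5 replicate numbers.

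For Apobec1 the genotypes separated in M2 and M0 and overlapped in M1. The gene had 1292, 1297, 1221, 1248 and 1163 CPM in TRα1PV M1 and 1105, 1162, 1145, 1171 and 1173 CPM in WT M1. In M2, TRα1PV libraries held 246, 246, 242, 255 and 255 CPM of Apobec1, against 366, 361, 379, 379 and 364 CPM in WT. In M0, they held 394, 420.4, 368, 423 and 417 CPM, against 612, 573, 618, 643 and 622 CPM in WT. Every TRα1PV library was below every WT library in M2 and in M0, by 1.49-fold and 1.52-fold in the means. Genotype log2 fold changes were 0.11 ± 0.05 in M1, -0.57 ± 0.05 in M2 and -0.60 ± 0.05 in M0. Within replicate numbers they ran from -0.65 to -0.51 in M2 and from -0.75 to -0.45 in M0.

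The averaged M1 response of Apobec1 was a log2 change of 1.26 ± 0.03 (adjusted p = 7.31e-25, edgeR), and the averaged M2 response was -0.72 ± 0.03 (adjusted p = 8.87e-18, edgeR), each in that direction within 5 of 5 replicate numbers. In ratios of means, M1 stood 3.08-fold above M0 in TRα1PV and 1.88-fold above in WT, while M2 was at 0.615 times M0 in TRα1PV and 0.603 times M0 in WT. The mean levels in M1 were 1244 ± 55.5 CPM in TRα1PV and 1151 ± 28.1 CPM in WT, the highest pair, followed by WT M0 alone. TRα1PV M0 and WT M2 overlapped, and TRα1PV M2 was lowest and apart.

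Granulocyte and precursor markers also differed by genotype, in all 3 states. Their summed level was 5.68 to 11.2 CPM in TRα1PV M1 and 3.46 to 5.29 CPM in WT M1. In M2 it was 98.2 to 228 CPM in TRα1PV and 28.6 to 92.8 CPM in WT, and in M0 it was 178 to 365 CPM in TRα1PV and 48.3 to 209 CPM in WT. The sums did not overlap between genotypes in M1 and M2, and in M0 they overlapped through WT replicate 1 at 209 CPM. Of these 9 markers, 1 was called higher in TRα1PV in M1, 6 in M2 and 9 in M0, beside 9.74%, 6.14% and 12.0% of all genes called higher, and 0 were called in either difference against M0. Elane had no read in either M1 group. The part of such cells in the Apobec1 values was not tested.

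Nearest to Apobec1 in level were Hdac7 (r = 0.988), Hcls1 (0.985) and Wasf2 (0.983), and with state means subtracted Rin2 (0.959), Ighm (0.940) and Tgm2 (0.936). Of 16 other deaminase and RNA editing genes 11 could be tested, and the M1 minus M0 difference was higher in 2 and lower in 2, or 36.4% called, with a median of -0.18 log2 beside 0.02 for all genes. For M2 minus M0, 0 were higher and 1 lower (9.09% called beside 2.16% of all genes). Averaged over states, 0 were higher and 1 lower (9.09% beside 26.2%). Rbm47, an RNA-binding cofactor of Apobec1 editing, had 231 ± 7.71 CPM in TRα1PV M1 and 203 ± 5.38 CPM in WT M1, against 94.6 ± 4.72 CPM in TRα1PV M0 and 104 ± 4.57 CPM in WT M0. Its M1 minus M0 difference was 0.31 ± 0.07 (adjusted p = 0.00155, edgeR), higher within 5 of 5 replicate numbers. Celf2, a splicing regulator that can act on Apob editing, had a difference of -0.53 ± 0.13 (adjusted p = 0.00294, edgeR), lower within 5 of 5. Apobec3, a deaminase that restricts retroviruses, had an M2 minus M0 difference of -0.51 ± 0.10 (adjusted p = 0.00237, edgeR), lower within 5 of 5, and averaged 64.3 ± 4.42 CPM in TRα1PV M2 and 71.9 ± 2.91 CPM in WT M2, against 133 ± 14.6 CPM in TRα1PV M0 and 104 ± 8.16 CPM in WT M0. Adarb1, an adenosine deaminase at under 2 CPM, was lower in TRα1PV averaged over states by -0.44 ± 0.14 (adjusted p = 0.0162, edgeR), within 4 of 5 replicate numbers.

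Tpst1 and Tagap were the 2 genes with TRα1PV above WT in M0. Tpst1 had 36.6, 36.0, 35.3, 37.3 and 35.1 CPM in TRα1PV M1 and 35.5, 42.2, 37.2, 38.4 and 42.0 CPM in WT M1. In M2 it had 14.8, 12.9, 13.5, 15.3 and 13.3 CPM in TRα1PV and 15.5, 15.8, 17.0, 15.0 and 18.7 CPM in WT. Both states overlapped between genotypes. In M0, Tpst1 was at 17.6, 21.1, 20.9, 24.1 and 16.5 CPM in TRα1PV, against 14.3, 12.1, 12.8, 12.8 and 11.7 CPM in WT, with no overlap and a 1.57-fold higher mean in TRα1PV. Genotype log2 fold changes were -0.11 ± 0.08 in M1, -0.23 ± 0.08 in M2 and 0.66 ± 0.08 in M0, and within replicate numbers the M0 ratio ran from 0.30 to 0.92. The granulocyte and precursor markers were also higher in TRα1PV in M0, as given above, and their part in the Tpst1 and Tagap values was not tested.

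With M0 as the base, Tpst1 in M2 had opposite directions in the genotypes. The ratio of means was 0.697 in TRα1PV and 1.29 in WT, and the averaged M2 response was -0.08 ± 0.06 (adjusted p = 0.251, edgeR). In M1 the ratio was 1.80 in TRα1PV and 3.07 in WT, and the averaged response was 1.23 ± 0.06 (adjusted p = 1.82e-18, edgeR), higher within 5 of 5 replicate numbers. Tpst1 was highest in WT M1 and TRα1PV M1, which overlapped and stood apart from the rest, and the other 4 groups overlapped as neighbours.

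Tagap had 96.7, 88.3, 86.3, 83.2 and 76.2 CPM in TRα1PV M1 and 75.6, 128, 106, 88.5 and 139 CPM in WT M1, which overlapped. In M2, TRα1PV libraries held 4.42, 5.56, 4.23, 5.04 and 4.77 CPM of Tagap, against 7.51, 8.83, 7.28, 8.82 and 9.55 CPM in WT. In M0 it was the reverse, with 29.7, 36.0, 30.3, 25.2 and 24.3 CPM in TRα1PV, against 23.7, 17.3, 18.4, 17.7 and 16.2 CPM in WT. Neither of these pairs of groups overlapped. TRα1PV was 1.75-fold lower than WT in M2 and 1.56-fold higher in M0. Genotype log2 fold changes were -0.32 ± 0.13 in M1, -0.81 ± 0.15 in M2 and 0.64 ± 0.13 in M0. The M2 minus M0 difference was -1.45 ± 0.20 and lay between -1.73 and -1.09 within the replicate numbers. The M1 minus M0 difference was -0.96 ± 0.18 and was negative in 4 of 5 numbers, with 0.03 at the other end of its range.

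Tagap was lower in M2 than in M0 in both genotypes, 6.06-fold in TRα1PV and 2.22-fold in WT by ratios of means, and the averaged M2 response was -1.87 ± 0.10 (adjusted p = 1.62e-16, edgeR). M1 stood 2.96-fold above M0 in TRα1PV and 5.75-fold above in WT, with an averaged response of 2.04 ± 0.09 (adjusted p = 6.71e-19, edgeR). Both averaged responses held within 5 of 5 replicate numbers. From WT M1 and TRα1PV M1, which overlapped, the order ran down through TRα1PV M0, WT M0, WT M2 and TRα1PV M2, each apart from the next. Exons of Tagap overlap E430024P14Rik on the opposite strand in GENCODE M21. That gene averaged 0.188 to 0.817 CPM over the groups, and no source used here says whether strand was used in counting, so shared reads cannot be told apart. Tagap1, a gene of similar name, averaged 7.90 to 10.3 CPM over the groups and was counted on its own.

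Tpst1 and Tagap lie on chromosomes 5 and 17 and had r = 0.735 over the 30 libraries after state means were subtracted. The genotype gap in M0, which helped choose both genes, stays in these values, so this r is no support for a link. Windows of both are shown because both genes were higher in TRα1PV than in WT in M0. For Tpst1, which has a pair of annotated starts, the window chr5:130073076-130073375 on the plus strand holds the STAT6 motif, TTC and GAA with 4 bases between, at base -93, in capitals below. The Tagap window is chr17:7925750-7926049 on the plus strand and, like the other Tpst1 window and those of Apobec1 and Nid1, held none of these motifs on either strand.
Tpst1: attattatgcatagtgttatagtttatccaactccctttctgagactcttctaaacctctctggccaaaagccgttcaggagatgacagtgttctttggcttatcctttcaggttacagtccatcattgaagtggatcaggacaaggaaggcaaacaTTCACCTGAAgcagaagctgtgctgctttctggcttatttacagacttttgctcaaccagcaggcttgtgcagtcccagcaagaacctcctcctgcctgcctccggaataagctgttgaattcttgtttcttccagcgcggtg
Tagap: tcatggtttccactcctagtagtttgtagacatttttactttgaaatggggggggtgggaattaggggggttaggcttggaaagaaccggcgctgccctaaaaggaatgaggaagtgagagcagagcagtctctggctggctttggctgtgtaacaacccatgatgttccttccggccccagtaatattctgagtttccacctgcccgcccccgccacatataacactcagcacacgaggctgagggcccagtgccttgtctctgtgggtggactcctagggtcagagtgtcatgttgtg

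Irgm1 (r = 0.976) was among the 3 genes closest to Tpst1 in level, with Parp9 (0.978) and Ifi47 (0.975). With state means subtracted, Irgm1 (0.916), BC147527 (0.891) and Parp12 (0.881) were closest. For Tagap they were Ifitm3 (0.985), Fcgr1 (0.978) and Axl (0.976) in level, and Serpina3f (0.824), Serpina3g (0.817) and Cd40 (0.774) after subtraction.

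Of 19 other sulfate genes, 18 could be tested. The M1 minus M0 difference was higher in 5 and lower in 3 (44.4% called beside 26.6% of all genes), with a median of 0.23 log2 beside 0.02 for all genes. For M2 minus M0, 0 of 18 were called beside 2.16% of all genes. Averaged over states, 1 was higher and 6 were lower in TRα1PV (38.9% called beside 26.2% of all genes). Papss2, which makes the sulfate donor PAPS, had 41.0 ± 3.16 CPM in TRα1PV M1 and 67.1 ± 7.31 CPM in WT M1, 17.1 ± 1.97 CPM in TRα1PV M2 and 28.9 ± 5.12 CPM in WT M2, and 7.73 ± 0.690 CPM in TRα1PV M0 and 14.0 ± 2.55 CPM in WT M0. It was lower in TRα1PV averaged over states by -0.78 ± 0.07 (adjusted p = 2.77e-10, edgeR), as was the anion transporter Slc26a6 by -0.61 ± 0.08 (adjusted p = 3.43e-07, edgeR). Slc26a2, a sulfate transporter, had an M1 minus M0 difference of -0.49 ± 0.10 (adjusted p = 0.000738, edgeR). Chst11, a chondroitin sulfotransferase, went the other way with 1.18 ± 0.26 (adjusted p = 0.00158, edgeR), at 7.01 ± 1.56 CPM in TRα1PV M1 and 3.46 ± 0.608 CPM in WT M1. These 4 results held within 5 of 5 replicate numbers.

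Genes that act with Dectin receptors, upstream of Tagap in mice, were among those named by the rule. Clec4n, which encodes Dectin-2, averaged 40.5 ± 2.65 CPM in TRα1PV M2 and 55.4 ± 9.38 CPM in WT M2, against 241 ± 6.89 CPM in TRα1PV M0 and 209 ± 25.7 CPM in WT M0. Its difference was -0.65 ± 0.16 for M2 minus M0 (adjusted p = 0.0193, edgeR) and -0.63 ± 0.16 for M1 minus M0 (adjusted p = 0.00439, edgeR). Without WT M2 replicate 3 the M2 minus M0 difference of Clec4n was -0.57 (adjusted p = 0.0507, edgeR) and no longer called. Prkcd, a protein kinase C isoform that acts after Dectin receptors, had an M2 minus M0 difference of -0.47 ± 0.10 (adjusted p = 0.00929, edgeR). Syk, the kinase that Dectin receptors engage, had an M1 minus M0 difference of 0.40 ± 0.08 (adjusted p = 0.000867, edgeR) and an average genotype effect of -0.25 ± 0.03 (adjusted p = 1.02e-06, edgeR). These 5 results held within 5 of 5 replicate numbers.

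Nid1 was the gene nearest the lower limit of detection. In M0 it had 4, 3, 2, 3 and 1 reads in TRα1PV libraries, against 16, 29, 6, 42 and 22 reads in WT. These are 0.0900, 0.0786, 0.0295, 0.0478 and 0.0277 CPM in TRα1PV, against 0.453, 0.740, 0.147, 0.929 and 0.675 CPM in WT, with no overlap. The gene passed the filter on low counts through the other groups, since 0 of 5 TRα1PV M0 libraries reached its limit of 0.295 CPM. Over the pooled M0 libraries, 13 reads in TRα1PV against 115 in WT make an 11.4-fold lower level in TRα1PV. Pooling leaves out the spread between libraries, and this difference helped choose the gene, so the ratio is a description. The mean was 10.8-fold lower in TRα1PV and the log2 fold change was -3.41 ± 0.40.

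Stimulated cells did not show a gap of that size. In M1, Nid1 was at 2.37, 2.63, 1.72, 1.74 and 1.76 CPM in TRα1PV, against 2.87, 3.21, 2.64, 2.83 and 3.08 CPM in WT, with no overlap. In M2 it was at 0.600, 0.673, 0.710, 0.834 and 0.692 CPM in TRα1PV and at 0.331, 0.813, 0.331, 0.420 and 0.456 CPM in WT, where 1 WT library lay within the TRα1PV range. Genotype log2 fold changes were -0.52 ± 0.23 in M1 and 0.57 ± 0.29 in M2. Relative to M0, the ratio of means in M1 was 37.3 in TRα1PV and 4.96 in WT, and in M2 it was 12.8 in TRα1PV and 0.799 in WT. The averaged responses were 3.74 ± 0.22 in M1 (adjusted p = 5.06e-16, edgeR) and 1.67 ± 0.25 in M2 (adjusted p = 1.06e-06, edgeR), each higher within 5 of 5 replicate numbers. By the ratios above, the M2 average rests on the TRα1PV M0 libraries with few reads, whose level is part of what chose the gene. Its p-value and its 5 of 5 are therefore no independent support for a response to M2 conditions. The order ran from WT M1 to TRα1PV M1, apart from each other, then TRα1PV M2, WT M0 and WT M2, which overlapped, and TRα1PV M0 alone at the bottom. Exons of Nid1 overlap Gm48682 on the opposite strand, which had 0 reads in all libraries.

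Summed fibroblast and stromal markers were lower in TRα1PV together with Nid1 in M0 and M1. In M2 the median of these sums was lower in TRα1PV, while Nid1 had the higher mean in TRα1PV. The 12 markers summed to 2.03, 3.54, 1.93, 2.06 and 2.80 CPM in TRα1PV M0, against 15.9, 27.8, 7.98, 25.1 and 25.8 CPM in WT M0. Of the 10 that could be tested, 5 were called lower in TRα1PV in M1, 7 lower and 1 higher in M2, and 10 lower in M0, beside 10.2%, 6.96% and 14.0% of all genes called lower. In M1 the sums were 5.37 to 8.17 CPM in TRα1PV and 8.20 to 10.1 CPM in WT, and in M2 they were 4.23 to 7.13 CPM in TRα1PV and 6.16 to 18.7 CPM in WT. Nid1 was highest in M1 and the sums were highest in WT M0. The markers with most reads were not the same in each state. Col6a3 (4.07 CPM) and Dcn (1.28 CPM) led in TRα1PV M1, against 2.99 and 2.49 CPM in WT M1. Postn (4.10 CPM) led in TRα1PV M2, against 1.97 CPM in WT M2. Col6a3 in M1 and Postn in M2 thus had the higher mean in TRα1PV, against the direction of the sums. WT M0 replicate 3 had both the lowest Nid1 and the lowest marker sum of its group, and WT M2 replicate 2 had the highest of both. Pdgfra had no read in either M1 group, and Lum had none in TRα1PV M2, WT M2 and WT M0. The part of stromal cells in the Nid1 values was not tested.

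**Figure D4:**
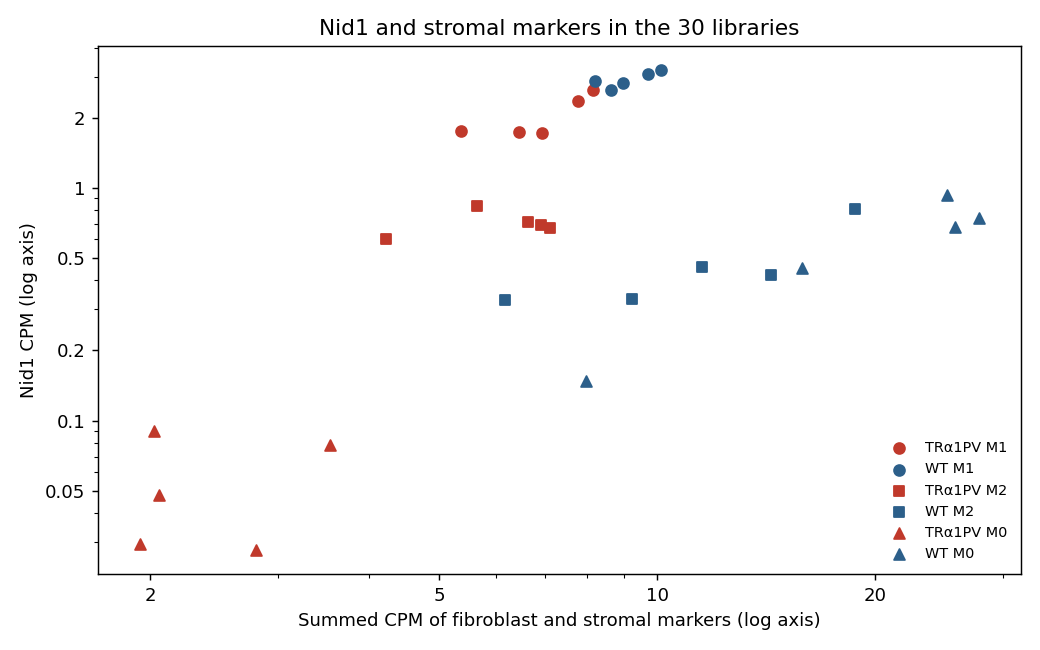
Nid1 in CPM against the summed CPM of 12 fibroblast and stromal markers in the 30 libraries (both log axes), with colour for genotype and shape for state. The TRα1PV M0 libraries lie lowest on both axes, with sums of 1.93 to 3.54 CPM, and the WT M0 libraries reach 27.8 CPM.

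In level, Nid1 ran closest to Mapk6 (r = 0.930), Psmd7 (0.913) and Myo1e (0.910). After state means were subtracted, Cyp1b1 (0.772), Alyref (0.760) and Timp3 (0.755) were closest. Of 25 other basement membrane genes, 18 could be tested. The M1 minus M0 difference was higher in 4 and lower in 2 (33.3% called beside 26.6% of all genes), with a median of 0.20 log2 beside 0.02 for all genes. For M2 minus M0, 0 were higher and 1 lower (5.56% called beside 2.16% of all genes). Averaged over states, 3 were higher and 7 lower (55.6% beside 26.2%).

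Col4a2, a chain of the collagen IV that nidogen binds, had an M1 minus M0 difference in the direction of Nid1. It averaged 10.8 ± 1.50 CPM in TRα1PV M1 and 8.81 ± 0.939 CPM in WT M1, against 0.579 ± 0.222 CPM in TRα1PV M0 and 1.58 ± 0.488 CPM in WT M0. Its M1 minus M0 difference was 1.72 ± 0.31 (adjusted p = 0.000225, edgeR), higher within 5 of 5 replicate numbers. For M2 minus M0, Col4a2 did not go with Nid1, with a difference of 0.01 that was not called, where Nid1 had 3.98. The genotype log2 fold change of Col4a2 was -1.42 ± 0.35 in M2 and -1.43 ± 0.24 in M0. Lamc1, the laminin chain to which nidogen attaches, had a difference of 0.30 ± 0.10 (adjusted p = 0.0217, edgeR), within 4 of 5. That call was lost without TRα1PV M1 replicate 1, at 0.23 (adjusted p = 0.0590, edgeR), and without WT M0 replicate 4, at 0.27 (adjusted p = 0.0521, edgeR). Agrn, which encodes the proteoglycan agrin, had an M2 minus M0 difference of -0.76 ± 0.18 (adjusted p = 0.0142, edgeR). Sparc, a collagen-binding matrix protein that is also on the stromal list, was lower in TRα1PV averaged over states by -3.42 ± 0.28 (adjusted p = 1.14e-10, edgeR), with at most 0.419 CPM in any TRα1PV library. Itga6, a laminin receptor subunit, was higher by 0.45 ± 0.05 (adjusted p = 4.25e-08, edgeR). The last 3 genes held their direction within 5 of 5 replicate numbers.

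Side by side, the averaged M1 response was higher for 5 of 6 genes and lower for Hacd3, which in WT was at 1.01 times M0. All 6 were called, beside 85.5% of all genes (42.2% higher, 43.3% lower), a share that makes a call by itself uninformative about these genes. The averaged M2 response was higher for Hacd3 and Nid1, lower for Apobec1 and Tagap and not called for Intu and Tpst1, or 4 of 6 beside 66.1% of all genes (31.8% higher, 34.3% lower). The mean of Nid1 in M2 was above M0 in TRα1PV cells alone, at 12.8 times M0, and at 0.799 times M0 in WT. The TRα1PV M0 level of Nid1 is part of what chose the gene. The genotype effect averaged over the states is a mean of the values that chose the genes, so it is given with no test. It was -0.74 ± 0.06 for Intu, -0.48 ± 0.05 for Hacd3, -0.35 ± 0.03 for Apobec1 and -1.12 ± 0.19 for Nid1. A large difference in 1 state enters this mean, so it does not stand for a difference in every state. For Tpst1 and Tagap, whose signs differ between states, the means were 0.10 ± 0.05 and -0.16 ± 0.08. Over all genes, 26.2% were called for this average (11.6% higher and 14.6% lower in TRα1PV).

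**Figure D5:**
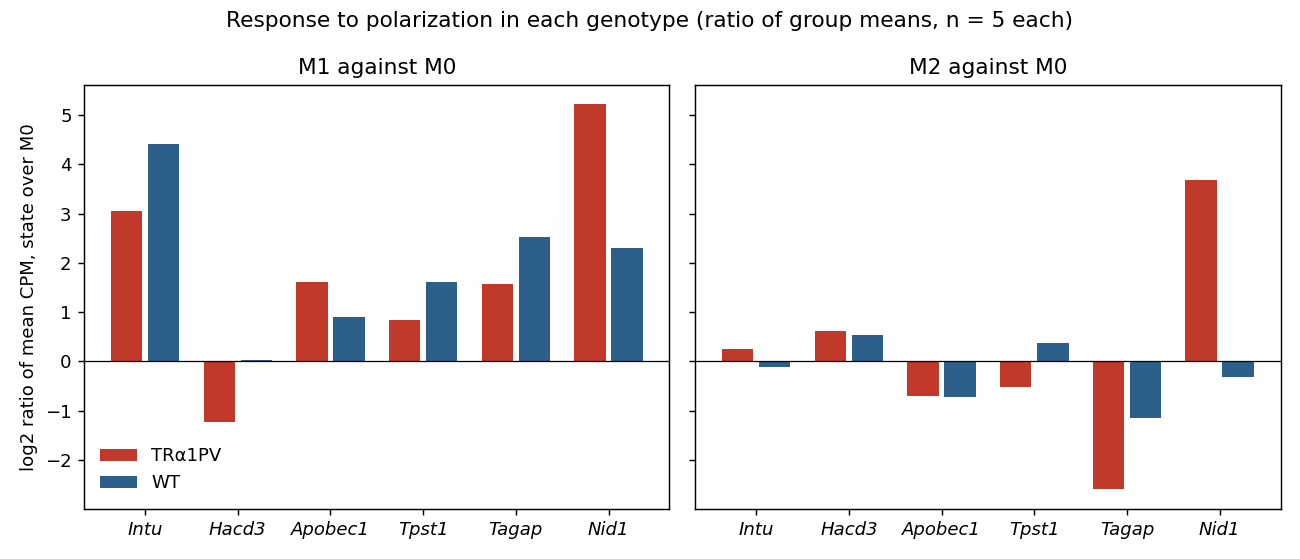
Log2 ratio of mean CPM in M1 over M0 (left) and M2 over M0 (right), with 1 bar per gene and genotype from group means of 5 libraries. Intu has the taller WT bar in M1 (ratios of 8.31 in TRα1PV and 21.5 in WT), and Nid1 has the taller TRα1PV bar in both panels.

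The M1 and M2 differences against M0 share the M0 libraries and are given side by side. For M1 minus M0 and M2 minus M0, Intu had -1.37 ± 0.13 and 0.37 ± 0.14, Hacd3 had -1.24 ± 0.12 and 0.07 ± 0.12, and Apobec1 had 0.71 ± 0.07 and 0.03 ± 0.07. Tpst1 had -0.77 ± 0.12 and -0.89 ± 0.12, Tagap had -0.96 ± 0.18 and -1.45 ± 0.20, and Nid1 had 2.89 ± 0.48 and 3.98 ± 0.50. Between M1 and M2 the genotype effect differed by -1.74 ± 0.14 for Intu, -1.31 ± 0.12 for Hacd3, 0.68 ± 0.07 for Apobec1, 0.12 ± 0.12 for Tpst1, 0.49 ± 0.19 for Tagap and -1.09 ± 0.37 for Nid1. These contrasts chose the genes, and over all genes 26.6% were called for M1 minus M0, 2.16% for M2 minus M0 and 21.8% for M1 minus M2.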

How the data were processed

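PolyA-selected RNA of 30 libraries was sequenced, 5 per group. The authors deposited 1 file per library with unnormalized counts of reads for each Ensembl gene. The submitters' processing notes name Trimmomatic 0.39, HISAT2 2.2.1, HTSeq 1.99.2 and GRCm39. No source used here gives the annotation release or strand setting. Symbols came from reference tables of another build (GRCm38) for 52081 of 55414 genes. Reads assigned to no gene (22.0 to 28.1%) were left out. Replicates differed beyond sampling noise in all 60 pairs.

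Counts were fitted with edgeR 4.0.16 (R 4.3.3, limma 3.58.1): TMM scaling, filterByExpr by group (minimum count 10, total 15), 1 quasi-likelihood fit over 6 group means with 24 residual degrees of freedom, two-sided tests, Benjamini-Hochberg adjustment over 15686 genes, calls at adjusted p under 0.05. The method was tested on simulated data. Likeness is Pearson's r of log2 CPM (prior count 2). Named were the 3 nearest genes by each measure and, per pathway list, the 2 called genes with the smallest p in the average genotype effect and in each difference against M0. The counts of the list related to Tagap, and 1 gene it names, are not reported here. Members and lists were chosen with earlier results of these data known. The labels' batch field holds the replicate number, so number was tried as a block. Same-numbered libraries of both genotypes had correlated deviations between -0.17 and 0.17 (M1), -0.0229 and 0.212 (M2), and -0.374 and 0.259 (M0). Other alternatives were DESeq2 1.42.0, other scaling and filters, and leaving out each library.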

Additional observations from a re-analysis of the deposited data

Results flagged for a closer look

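Over the 36 gene and group combinations, 2 had a library far from the other 4 by Dixon's test (limit 0.71 of the range for 5 libraries), and chance flags about 1 in 20 groups. Intu in TRα1PV M2 replicate 1 was at 4.26 CPM, with the next library at 5.27 CPM and a gap of 0.734 of the range. Nid1 in WT M2 replicate 2 was at 0.813 CPM, with the next at 0.456 CPM and a gap of 0.740. Without that library the M2 genotype log2 fold change of Nid1 was 0.86, against 0.57 with it.

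Tagap had opposite genotype effects in M2 and M0, with every TRα1PV library below WT in M2 (-0.81 log2) and above WT in M0 (0.64), and this difference was not tested since it chose the gene. Pathway genes whose genotype effect differed between M1 and M0 by the edgeR test were Traf3ip1 (0.43), Ift20 (0.35), Acsl5 (0.36), Rbm47 (0.31), Chst11 (1.18), Syk (0.40), Col4a2 (1.72) and Lamc1 (0.30) on the positive side. On the negative side were Acsl1 (-0.65), Celf2 (-0.53), Slc26a2 (-0.49) and Clec4n (-0.63). Between M2 and M0 they were Apobec3 (-0.51), Prkcd (-0.47), Clec4n (-0.65) and Agrn (-0.76).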

How the results depend on the processing

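Of 1967 recomputed values of the 6 genes, 1965 kept their direction and side of the threshold or stayed within the replicate spread, and 0 reversed. These values include the average genotype effect, for which the threshold is no test, since its values chose the genes. Left-out libraries gave an average genotype effect of -0.20 to -0.12 for Tagap, lowest without WT M1 replicate 1 (-0.195). For Tpst1 they gave 0.084 to 0.13, highest without TRα1PV M0 replicate 5 (0.129). Of 27 recomputed pathway gene results, 25 kept their call. Lamc1 lost it also without the filter (0.28) and with only the groups compared (0.30). Over all genes, fitting only the groups compared called 4008 genes in M2 (2055 with all groups) and 2458 in M0 (4072). DESeq2 called 525 genes for M2 minus M0 (339 with edgeR). Leaving out 1 library gave 1270 to 2900 calls in M2, 2941 to 6143 in M0 and 252 to 511 for M2 minus M0. Each of these counts was highest without WT M0 replicate 2. So were the counts for M1 (3808, against 3132 with all libraries) and M1 minus M0 (5993, against 4175). The same was true of M1 minus M2 (4468, against 3418) and the average genotype effect (5349, against 4111). The shares of all genes called for genotype effects thus depend on this library. In M2, 1353 genes were called without WT M2 replicate 1 and 1270 without WT M2 replicate 5. The cause of these moves was not tested. With the replicate block, 4617 genes were called for M1 minus M0, 419 for M2 minus M0 and 4366 for the average genotype effect. With the block within genotype, the first 2 counts were 4389 and 403, and the third could not be fitted. The block called 1 cilium gene for M2 minus M0, where 0 were called without it. It changed no call of the 6 genes in the averaged M1 and M2 responses. Depth limits Nid1, with 1 to 4 reads in each TRα1PV M0 library.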
